A study of Homo sapiens with 8 samples.

Results

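The miR-10 and miR-196 microRNAs are encoded inside the HOX clusters, and 4 entries of these families were listed among the 2867 entries of the deposited small RNA table: miR-10a-5p, miR-10b-5p, miR-196a-5p and miR-196b-5p. They were chosen by a rule on names, with earlier results of these data known. The rule takes every entry called miR-10a, miR-10b, miR-196a (either copy) or miR-196b with either arm. All 4 passed the filter on low counts. The 4 listed entries are 5p arms, cut from the 5′ side of the hairpin, and 0 were 3p arms. The RNA came from HEK293, a long-established line derived from human embryonic kidney. An antisense oligonucleotide (ASO), which binds an RNA of complementary sequence, was transfected at 100 nM for 4 libraries, and the other 4 received none; all were harvested after 48 h. miR-31 is named as the target in the library names, and the stated question was whether the ASO had effects beyond it. The labels name no genetic change, no unrelated ASO and no mock transfection, so an effect of this ASO and an effect of transfecting any ASO cannot be told apart. Whether each library is a culture of its own is not stated either, so the p-values reflect the spread among these libraries, which may be technical.

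HOX genes encode transcription factors that set position along the body axis, and they lie in 4 clusters in the human genome. The microRNAs of these clusters are transcribed among the HOX genes and repress several of them: miR-10 members pair with transcripts such as that of HOXD10, and miR-196 directs cleavage of the HOXB8 transcript. Target choice rests mainly on the seed, bases 2 to 8 of the mature strand.

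The mature sequences are shown because the seed groups the members and because 2 of them are nearly the same molecule. They come from RefSeq (GRCh38.p14), run 5′ to 3′ and carry the seed in capitals. Of the 4 members, miR-10b-5p was not matched there, so how close it is to miR-10a-5p was not compared base by base. The first 3 are members, and the others are the HOX-embedded miR-615-3p and a relative of each family.
miR-10a-5p: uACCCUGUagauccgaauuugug
miR-196a-5p: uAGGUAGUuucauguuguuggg
miR-196b-5p: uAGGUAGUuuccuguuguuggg
miR-615-3p: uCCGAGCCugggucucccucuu
let-7a-5p: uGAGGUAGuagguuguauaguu
miR-100-5p: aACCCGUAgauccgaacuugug
Among the 796 of 903 known entries that matched RefSeq by name, the seed AGGUAGU was held by 2 entries, miR-196a-5p and miR-196b-5p. These 2 are equal at 21 of 22 bases and differ by A12C (the base of miR-196a-5p, the position from 1 at its 5′ end, and the base of miR-196b-5p). Since the aligner is not given in the sources used here, how reads with a sequencing error at that base were divided between the 2 entries is uncertain. The run AGGUAGU, bases 2 to 8 of miR-196a-5p, is also found at bases 3 to 9 of let-7a-5p, so the let-7 seed is the miR-196 seed moved by 1 base. miR-10a-5p and miR-100-5p, of the same hairpin family, share GUAGAUCCGAA (bases 7 to 17 of miR-10a-5p) but not the seed. RefSeq gives miR-10a-5p 23 bases, while the deposited length of each of the 4 members was 22.

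The 5 hairpin genes lie on 4 chromosomes (GRCh38, GENCODE 29). MIR10A (chromosome 17, minus strand, 48579838 to 48579947) overlaps an exon of HOXB4 and an intron of HOXB3 on the same strand. MIR10B (chromosome 2, plus strand, 176150303 to 176150412) lies in an intron of HOXD3 and 810 bases before HOXD4. MIR196B (chromosome 7, minus strand, 27169480 to 27169563) overlaps an exon of HOXA9, with an exon of HOXA10-AS on the opposite strand. MIR196A1 (chromosome 17, minus strand, 48632490 to 48632559) lies in an intron of HOXB7, 6134 bases from HOXB9. MIR196A2 (chromosome 12, plus strand, 53991738 to 53991847) lies in an intron of HOXC6, 1459 bases past HOXC10. The 2 miR-196a hairpins are shown (RefSeq, GRCh38.p14, mature 5p strand in capitals) because their 5p strands are the same 22 bases, so a count of miR-196a-5p cannot be assigned to the HOXB or the HOXC copy.
MIR196A1: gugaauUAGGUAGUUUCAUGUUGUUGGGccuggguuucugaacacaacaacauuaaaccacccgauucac
MIR196A2: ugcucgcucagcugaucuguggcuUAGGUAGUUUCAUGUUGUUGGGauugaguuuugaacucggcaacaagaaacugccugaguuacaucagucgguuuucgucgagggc
Their 3p sides differ.

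Total counts ran from 8168828 to 11677123 per library. Levels are CPM (counts relative to the total of the library) after TMM scaling, which adjusts that total for the library's composition, and are given as mean ± SD over 4 libraries. The target miR-31-5p stood at 771, 910, 1012 and 633 CPM in the ASO group (libraries 1 to 4) and at 348, 653, 875 and 1050 CPM in the control group (libraries 1 to 4), so it did not separate the groups and gave no check of the labels. Control library 1 stood apart: it held the highest value of 26.3% and the lowest value of 27.4% of the 745 tested entries, against at most 17.0% and 17.2% in any other library. Among the 84 tested entries with a mean count of at least 10000, which include the members, these shares were 29.8% and 51.2%. Any other library held at most 21.4% and 16.7% there. An extreme value in control library 1 was therefore common among entries as abundant as the members. Results are therefore also given without it. Of 5 kidney epithelial markers fixed with the tests, all 5 were above 0 in all 8 libraries (summed level 1744 to 1890 CPM with ASO and 1803 to 2317 CPM in controls). Of 5 blood markers, 2 were listed, with a sum of at most 1.08 CPM, and neither of 2 pluripotency markers was listed. Markers of other tissues were also present: of 3 neural markers only miR-9-5p was listed (3069 to 3445 CPM with ASO and 3397 to 3741 CPM in controls, above the kidney sum), the endothelial marker miR-126-3p stood at 828 to 895 CPM and 814 to 938 CPM, and 3 mesenchymal markers summed to 121 to 134 CPM and 118 to 126 CPM. The 3 muscle markers summed to at most 9.21 CPM. The liver marker miR-122-5p stood at 24.8 to 40.4 CPM with ASO and 10.1 to 14.8 CPM in controls, so its groups did not overlap (log2 fold change 1.30, SE 0.20; edgeR, adjusted p = 0.0516). Its part in the results on the members was not tested.

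The miR-10 pair was among the most abundant microRNAs of these cells. Together miR-10a-5p and miR-10b-5p took 5.08% ± 0.355 of all counts with ASO and 5.71% ± 1.01 in controls, while the miR-196 pair took 0.909% ± 0.109 and 0.877% ± 0.0703. In the 3 controls without library 1 these shares were 5.21% ± 0.244 for miR-10 and 0.907% ± 0.0454 for miR-196. In every one of the 8 libraries the order was miR-10a-5p, miR-10b-5p, miR-196b-5p, miR-196a-5p. Among known entries miR-10a-5p ranked 9 to 11, miR-10b-5p 10 to 13, miR-196b-5p 30 to 35 and miR-196a-5p 55 to 66. The deposited lengths of the 4 entries are equal, so this order is also the order per length, but library preparation does not capture every small RNA equally, and how far that sets the order was not tested. The neighbours miR-10a-5p and miR-10b-5p overlapped in range across libraries, while miR-10b-5p lay above miR-196b-5p, and miR-196b-5p above miR-196a-5p, in all pairs of libraries.

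miR-10a-5p, the HOXB member, was measured at 28433, 26307, 28154 and 30163 CPM in the ASO group (libraries 1 to 4) (278857 to 315022 counts) and at 38663, 30307, 27690 and 26894 CPM in the control group (libraries 1 to 4) (231154 to 392126 counts). Control library 1 was the highest of the 8, and the other 3 controls lay within 26894 to 30307 CPM, which overlaps the ASO libraries. The ASO mean was 28264 ± 1579 CPM and the control mean 30888 ± 5384 CPM, or 28297 ± 1786 CPM in the 3 controls without library 1. The fitted log2 fold change (ASO over control) was −0.13 (SE 0.12, 95% interval −0.40 to 0.15; edgeR's quasi-likelihood test, adjusted p = 0.698), and without control library 1 it turned to 0.013.

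miR-10b-5p, the HOXD member, was measured at 23234, 20146, 21789 and 24162 CPM in the ASO group (libraries 1 to 4) and at 35699, 25512, 23172 and 22125 CPM in the control group (libraries 1 to 4). Control library 1 was again the highest, 1.46 times the mean of the 8 libraries, and the remaining controls overlapped the ASO libraries. The group means were 22333 ± 1755 CPM with ASO and 26627 ± 6211 CPM in controls, or 23603 ± 1734 CPM without control library 1. The log2 fold change was −0.25 (SE 0.16, 95% interval −0.62 to 0.11; edgeR, adjusted p = 0.515), and −0.065 without control library 1, so that 1 library accounted for most of its size.

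miR-196a-5p, which pools the HOXB and HOXC copies, stood at 1987, 2314, 2699 and 2249 CPM in the ASO group (libraries 1 to 4) and at 1681, 2059, 2309 and 2309 CPM in the control group (libraries 1 to 4). Here control library 1 was the lowest of the 8 and ASO library 3 the highest, and the groups overlapped. The means were 2312 ± 294 CPM with ASO and 2090 ± 296 CPM in controls, or 2226 ± 144 CPM without control library 1. The log2 fold change was 0.15 (SE 0.13, 95% interval −0.16 to 0.45; edgeR, adjusted p = 0.685), and was 0.068 without control library 1 and 0.048 without ASO library 3.

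miR-196b-5p, the HOXA member, had the closest group means of the 4. It stood at 5996, 6653, 7631 and 6637 CPM in the ASO group (libraries 1 to 4) and at 6471, 6687, 6922 and 6772 CPM in the control group (libraries 1 to 4). All 4 controls lay inside the range of the ASO libraries, whose highest was again library 3. The ASO mean was 6729 ± 675 CPM and the control mean 6713 ± 188 CPM, and the log2 fold change was 0.0034 (SE 0.07, 95% interval −0.17 to 0.18; edgeR, adjusted p = 0.982), which is a fold between 0.889 and 1.13. Without control library 1 the control mean was 6794 ± 119 CPM, and the log2 fold change turned to −0.00029 (SE 0.08).

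**Figure D1:**
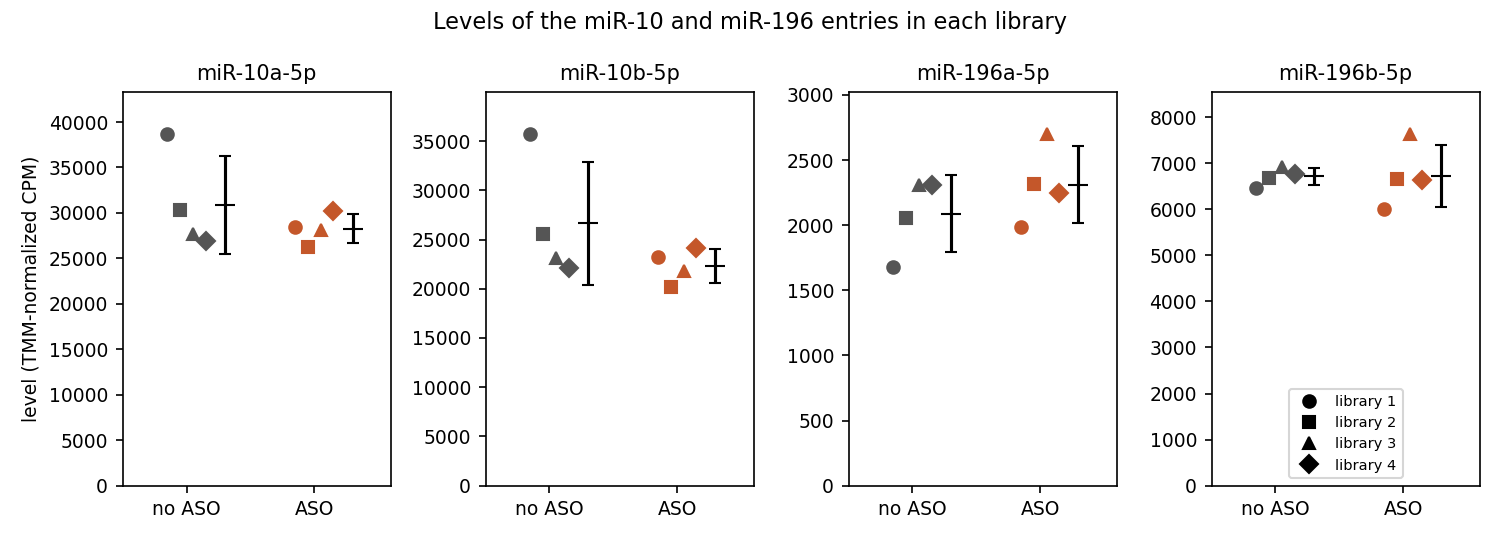
Level of each miR-10 and miR-196 entry in TMM-normalized CPM (y axes start at 0 and differ between panels) in the 4 control and 4 ASO libraries; symbols mark library numbers and bars the mean ± SD (n = 4). Control library 1 is the highest of the 8 for both miR-10 entries and the lowest for miR-196a-5p, and the groups overlap in all 4 panels.

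Across the comparison, 0 of the 4 members passed the threshold of 0.05 on the adjusted p in edgeR's test, where 0.134% of all 745 tested entries did (1 entry, which fell), and 0 of the 4 had an unadjusted p under 0.05, where 10.5% of all entries did. DESeq2 and limma-voom also called 0 of the 4, where they called 23 and 4 of all 745 tested entries. In 0 of the 4 members did the ASO libraries lie wholly apart from the controls, where 8.32% of all tested entries had groups that did not overlap. The intervals limit the change of each member to a fold between 0.755 and 1.11 for miR-10a-5p, 0.653 and 1.08 for miR-10b-5p, and 0.897 and 1.36 for miR-196a-5p.

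**Figure D2:**
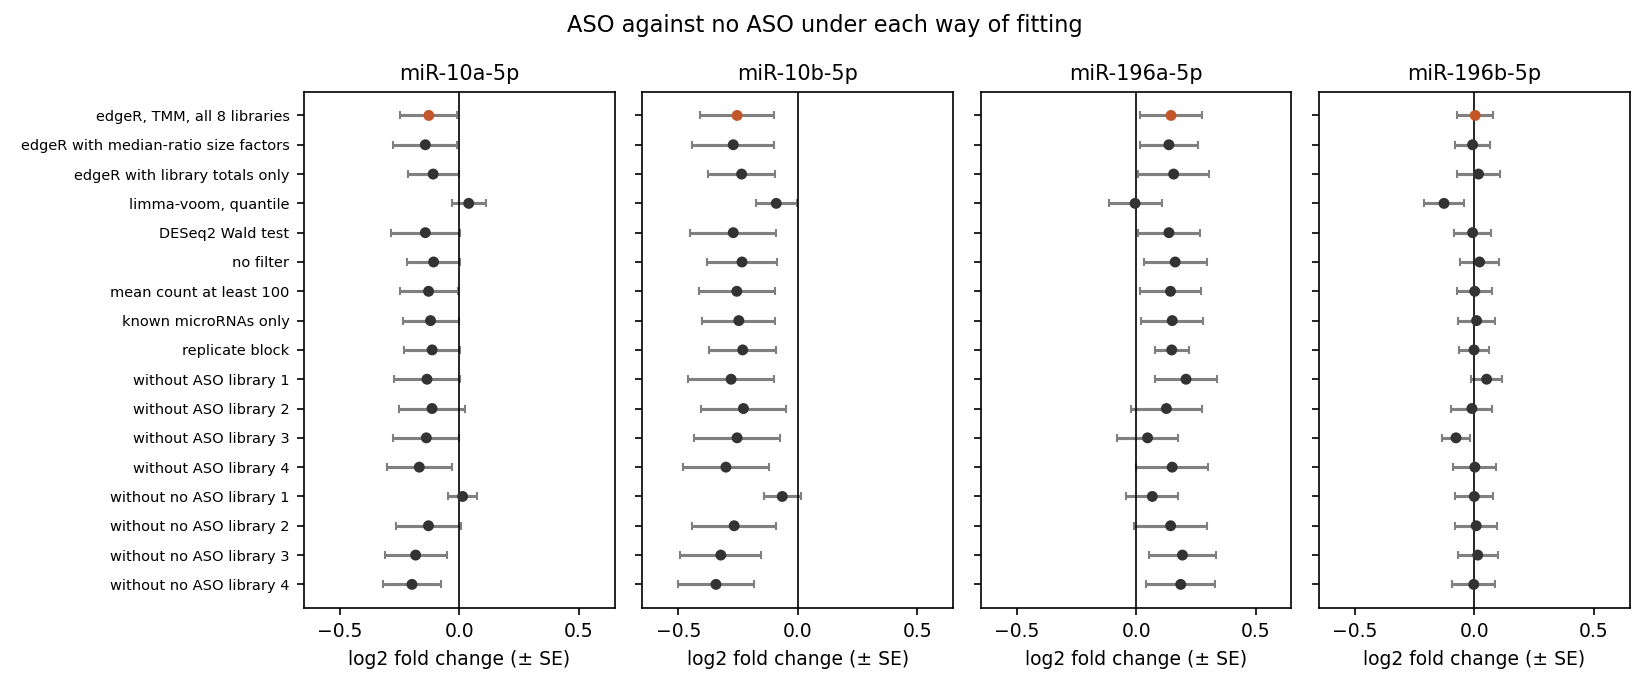
Log2 fold change (ASO over control, ± SE) of the 4 entries (panels) in the edgeR fit on all 8 libraries (orange) and under 16 other ways of fitting (black). miR-10b-5p stays below 0 throughout, miR-10a-5p turns to 0.013 without control library 1 and to 0.039 with quantile normalization, and miR-196b-5p lies within 0.13 of 0 throughout.

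The error of counting reads was smaller than the spread between libraries. From the counts alone a coefficient of variation of 0.181% is given for miR-10a-5p and 0.662% for miR-196a-5p, whereas the libraries varied by 13.3% and 13.5% over all 8. For the smallest count of any member, 17053 of miR-196a-5p in control library 1, the Wilson 95% interval was 1600 to 1649 CPM before TMM scaling, an interval for counting error alone, because reads copied by PCR do not stand for separate molecules. Among the 82 known entries with a mean count of at least 10000, the SD of the log2 level over the 8 libraries had a median of 0.15. It was 0.18 for miR-10a-5p, 0.25 for miR-10b-5p, 0.20 for miR-196a-5p and 0.097 for miR-196b-5p, so miR-10b-5p varied more than 62 of the 82 and miR-196b-5p more than 19.

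The paralogues within each family were compared as ratios of counts inside a library, which no scaling of the library affects. How reads were divided between such closely related strands is not given. miR-10a-5p exceeded miR-10b-5p by a larger factor in the ASO libraries. The ratio was 1.22, 1.31, 1.29 and 1.25 in the ASO group (libraries 1 to 4) and 1.08, 1.19, 1.19 and 1.22 in the control group (libraries 1 to 4), with means of 1.27 ± 0.0381 and 1.17 ± 0.0594. All 4 ASO libraries lay above all 4 controls, with a difference in mean log2 ratio of 0.12, or 1.08-fold. A two-sided exact permutation test gave p = 0.0286, the smallest that 70 arrangements of 4 and 4 libraries allow, and p = 0.0571 adjusted over the 2 ratios tested, so the difference did not pass after adjustment. Of the 2 ratios, 1 (50.0%) had groups that did not overlap. Of all 3321 ratios between 2 known entries with a mean count of at least 10000, 9.88% had groups that did not overlap, a background computed after the ratio had been seen. The gap between the groups was narrow: the 95% counting interval was 1.217 to 1.231 in ASO library 1, the lowest of its group, and 1.209 to 1.222 in control library 4, the highest of its group. Without control library 1 the difference in log2 ratio was 0.079 (exact permutation p = 0.0571).

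The ratio of miR-196b-5p to miR-196a-5p did not separate the groups. It was 3.02, 2.88, 2.83 and 2.95 in the ASO group (libraries 1 to 4) and 3.85, 3.25, 2.998 and 2.93 in the control group (libraries 1 to 4), with means of 2.92 ± 0.0838 and 3.26 ± 0.417. The difference in mean log2 ratio was −0.15 (exact permutation p = 0.143, adjusted p = 0.143), and −0.067 without control library 1. In that library both ratios were the most extreme of the 8.

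**Figure D3:**
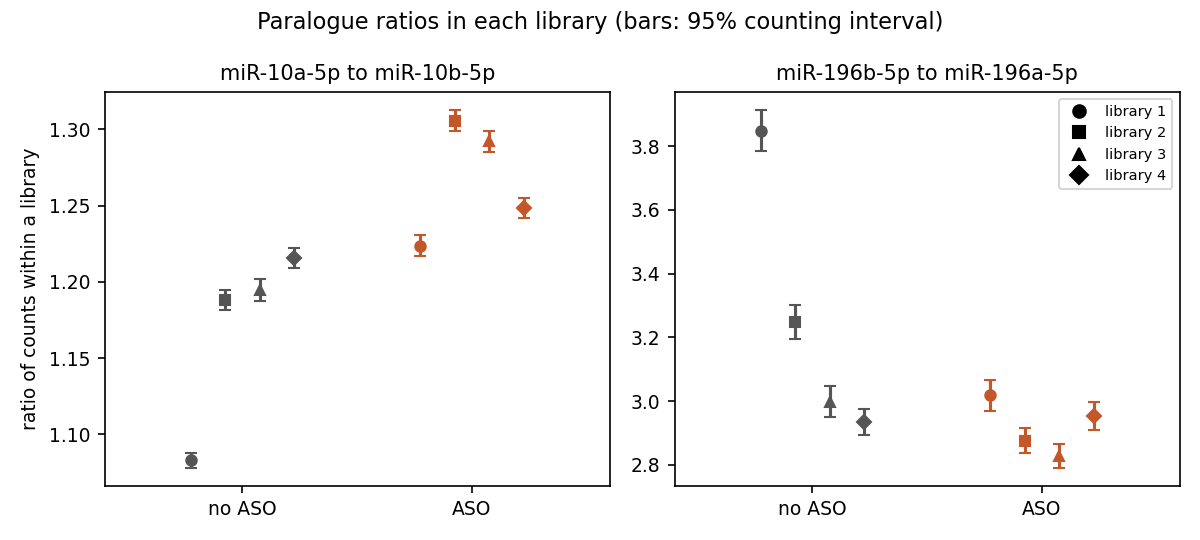
Ratio of counts of miR-10a-5p to miR-10b-5p (left) and of miR-196b-5p to miR-196a-5p (right) in each control and ASO library, with 95% counting intervals as bars and symbols for library numbers; the y axes do not start at 0. On the left the ASO libraries run from 1.22 to 1.31 and the controls from 1.08 to 1.22; on the right the groups overlap.

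Between the families the libraries also differed. Summed miR-10 counts per miR-196 count were 6.47, 5.18, 4.83 and 6.11 in the ASO group (libraries 1 to 4) and 9.12, 6.38, 5.51 and 5.40 in the control group (libraries 1 to 4). The mean was 5.65 ± 0.769 with ASO and 6.60 ± 1.74 in controls, or 5.76 ± 0.539 in the 3 controls without library 1. Control library 1 lay highest, and the other 3 controls, at 5.40 to 6.38, lay inside the range of the ASO libraries.

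The other HOX-embedded microRNA in the table, miR-615-3p of the HOXC cluster (MIR615, chromosome 12, plus strand, 54033950 to 54034045, within an intron of HOXC5), had a library pattern close to that of the miR-10 pair. It stood at 3178, 2970, 3378 and 3635 CPM in the ASO group (libraries 1 to 4) and at 4538, 3739, 3416 and 3284 CPM in the control group (libraries 1 to 4), with control library 1 again the highest. Its log2 fold change was −0.19 (SE 0.11; edgeR, adjusted p = 0.515), and −0.066 (SE 0.078; adjusted p = 0.867) without that library. Likeness was measured as the root mean square difference of log2 levels, each centred on its own mean, over the 8 libraries. For miR-10a-5p this was 0.052 to miR-615-3p and 0.079 to miR-10b-5p, against 0.33 to miR-196a-5p and 0.21 to miR-196b-5p. The 2 miR-196 entries differed from each other by 0.13, and 29 of 273 non-member entries were closer to miR-196a-5p and 39 of 309 closer to miR-196b-5p than that. Without control library 1, an alternative added after seeing the data, the distances from miR-10a-5p were 0.055 to miR-615-3p, 0.049 to miR-10b-5p, 0.17 to miR-196a-5p and 0.13 to miR-196b-5p, and the miR-196 entries then differed by 0.060, with none of the 290 non-member entries compared closer to miR-196a-5p and none of 307 closer to miR-196b-5p. MIR196A2 and MIR615 lie in the same HOXC cluster, and the distance between miR-196a-5p and miR-615-3p was 0.33, or 0.18 without control library 1; the miR-196a-5p count also holds the HOXB copy.

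**Figure D4:**
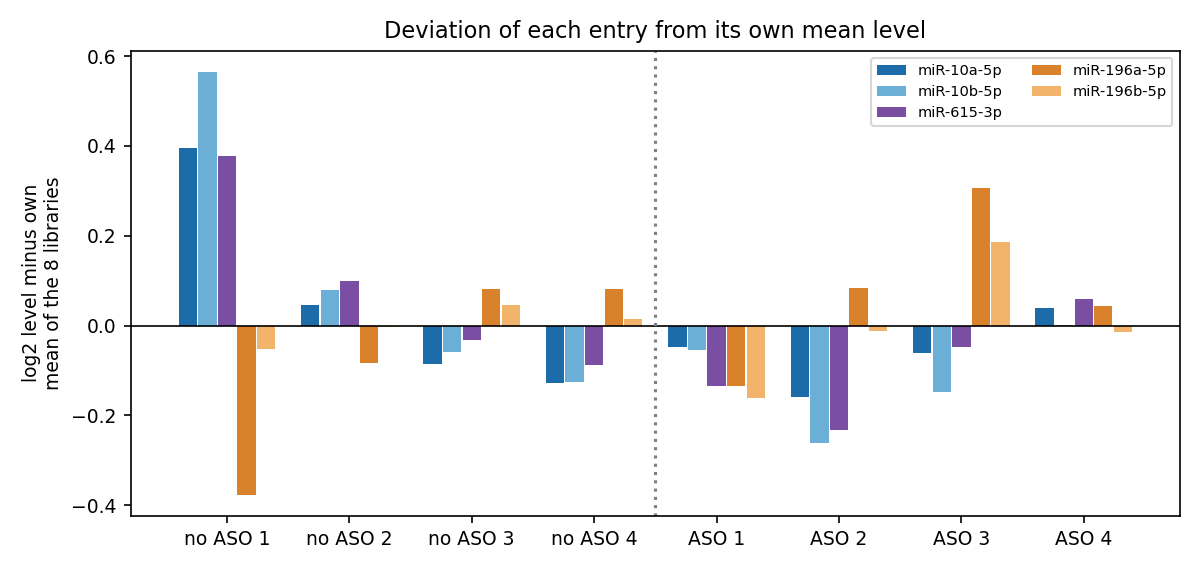
Log2 level of each entry minus its own mean over the 8 libraries (y axis) in control (left of the dotted line) and ASO libraries; bars are single libraries and colours are entries. In control library 1 the miR-10 entries and miR-615-3p stand 0.38 to 0.56 above their means and miR-196a-5p 0.38 below its mean.

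Among other known entries with a mean count of at least 100, the 3 closest to miR-10a-5p were miR-330-3p (0.038), miR-615-3p and miR-212-5p (0.062), where the median of the 290 entries compared was 0.27. The closest to miR-10b-5p were miR-671-3p (0.069), miR-532-5p (0.073) and miR-99a-5p (0.074), of which miR-99a-5p belongs to the same hairpin family. All of these were higher in control library 1 than in any other library, miR-330-3p for example at 845 CPM against 585 to 705 CPM in the other 7. The closest to miR-196a-5p were miR-664a-3p (0.087), miR-1226-3p (0.087) and miR-500a-3p (0.092), and to miR-196b-5p they were miR-152-3p (0.070), miR-2110 (0.078) and miR-182-5p (0.079). Without control library 1, miR-330-3p remained among the 3 closest non-members to miR-10a-5p, while miR-615-3p moved to rank 5 and miR-212-5p to rank 11. For miR-196b-5p, miR-152-3p remained, while miR-2110 moved to rank 6 and miR-182-5p to rank 8. None of the 3 named for miR-10b-5p or for miR-196a-5p remained among the 3 closest.

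Relatives of the 2 families were examined from 2 lists, and none of their tested entries was called. Of the 4 listed 5p arms of miR-99, miR-100 and miR-125, which share the hairpin family of miR-10, 0 passed the edgeR threshold, 2 had a fold above 1 and 2 below, and the median log2 fold change was −0.02 (range −0.32 to 0.35), beside 0.01 over all 745 tested entries. That median lies between miR-99a-5p (−0.32) and miR-100-5p (−0.30) on one side and miR-125a-5p (0.35) and miR-125b-5p (0.25) on the other. The groups did not overlap for 1 of these 4, miR-100-5p, at 268 to 298 CPM with ASO and 312 to 404 CPM in controls (log2 fold change −0.30, SE 0.095; edgeR, unadjusted p = 0.0157, adjusted p = 0.402), and they overlapped for the other 3. For miR-99a-5p the unadjusted p was also under 0.05 (SE 0.13; edgeR, unadjusted p = 0.0409, adjusted p = 0.445). Of all 745 tested entries, 8.32% had groups that did not overlap and 10.5% had an unadjusted p under 0.05 in edgeR's test. Without control library 1 the log2 fold change of miR-100-5p was −0.20 (edgeR, adjusted p = 0.530). The most abundant was miR-125a-5p, at 11479 ± 1585 CPM with ASO and 9037 ± 1741 CPM in controls. Of the 9 listed let-7 and miR-98 5p arms, whose seed is that of miR-196 moved by 1 base, 0 passed, 7 had a fold above 1 and 2 below, the median was 0.01, and the groups overlapped for all 9. let-7a-5p alone, at 47841 ± 1899 CPM with ASO and 47572 ± 1077 CPM in controls, had higher group means than any of the 4 members.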

How the data were processed

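The authors deposited a single table with whole-number counts per microRNA entry and library, not normalized. It also holds CPM columns that the authors headed TPM, which equal the count scaled to its library total within 0.223 CPM and were not used, and a length for each entry. Per the submitters' processing notes, bcl2fastq 2.20, Trimmomatic 0.30, edgeR 3.4.6 and GRCh38 were used; which aligner, counter and annotation were used is not given in the sources used here. Per the labels' protocols, total RNA (Qiagen miRNeasy) went into NEB small RNA libraries. Libraries were grouped by title.

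The filter kept 745 entries (539 known) that were detected in 4 or more of the 8 libraries and averaged 10 counts or more. edgeR 4.0.16 (TMM, quasi-likelihood test, two-sided) was fitted on all of them in R 4.3.3, with Benjamini-Hochberg adjustment over all 745 and a threshold of 0.05. The script was tested on simulated data. Ratios took a pseudocount of 0.5 and an exact permutation test. Alternatives were median-ratio scaling, library totals, limma-voom 3.58.1 on quantile-normalized counts, DESeq2 1.42.0, other filters, known entries only, a replicate block and leaving out each library. No 2 replicates were alike within sampling noise (a chi-square of 135 to 801 per degree of freedom between libraries of a group, for entries whose 2 counts sum to 20 or more). 1 count was 0.0856 to 0.122 CPM. All matching members were named; likeness named the 3 closest of the known entries with a mean count of at least 100 and an SD of at least 0.5 times the member's (log2 of CPM + 1). The members and lists were chosen with earlier results of these data known.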

Additional observations from a re-analysis of the deposited data

How the results depend on the processing

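None of the 4 members passed the threshold under any of the 16 alternatives (adjusted p 0.249 to 0.999). miR-10b-5p kept its direction under all 16. The direction of miR-10a-5p turned with quantile normalization in limma-voom (log2 fold change 0.039), and that of miR-196a-5p did so as well (−0.0042). For miR-196b-5p the sign turned with median-ratio scaling (−0.0075), quantile normalization (−0.13), DESeq2 (−0.0075) and the replicate block (−0.0015). Leaving out 1 library gave −0.20 to 0.013 for miR-10a-5p, −0.34 to −0.065 for miR-10b-5p, 0.048 to 0.21 for miR-196a-5p and −0.077 to 0.051 for miR-196b-5p. The cause of these turns was not tested. The number of entries called among all tested was 1, and it was 4 with limma-voom, 23 with DESeq2 (9 higher, 14 lower), 0 without the filter, 4 with a mean count of at least 100, 4 among known microRNAs, 0 with the replicate block and 0 (without control library 2) to 5 (without control library 4) on leaving out 1 library. The difference in the log2 ratio of miR-10a-5p to miR-10b-5p was 0.079 to 0.13 on leaving out 1 library (exact permutation p = 0.0286 to 0.0571). It was 0.12 with the replicate block (exact sign-flip p = 0.125, the smallest that 4 pairs allow). That of miR-196b-5p to miR-196a-5p was −0.20 to −0.067. Deviations of same-numbered libraries from their group means correlated at −0.0394 to 0.297 over the tested entries. For differently numbered libraries this was −0.260 to 0.182, and the highest value of all was between the libraries numbered 3. The labels do not state pairing by number, and these correlations cannot decide it, since a low correlation does not exclude pairing. The block changed no call of a member, and it took the SE of miR-196a-5p from 0.13 to 0.071. Mean levels moved by less than 1 SD under either other scaling. No test at lower depth was run; the counting error given for the members covers reads, not molecules.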
